A study of Mus musculus with 30 samples.

Results

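Egr1, Egr2, Egr3, Ier2, Ier3 and Ier5 belong to the immediate early genes, whose transcription starts within minutes of a stimulus without new protein synthesis. They were selected by gene symbol, with earlier results of these data known, and make up 6 of the 43629 genes in a table of RNA sequencing counts from mouse bone marrow-derived dendritic cells (BMDCs). Wild-type (WT) BMDCs were compared with Cacnb3-/- BMDCs, in which the gene of the β3 auxiliary subunit of voltage-gated calcium channels was disrupted. The study's methods give the C57BL/6J strain for WT mice and C57BL/6N for Cacnb3-/- mice, so that genotype and substrain cannot be told apart. Bone marrow of mice of both sexes aged 6 to 12 weeks was grown with GM-CSF, and the labels state 6 days of culture before the cells received a pulse of extracellular adenosine triphosphate (ATP, 500 µM, 30 min). Each genotype had 5 numbered cultures with 3 libraries each, 1 in each of the sets that the library names call ctrl, 0p5h and 24h. Name and treatment field both place the 24h libraries 24 hours after ATP, and the sources differ on whether the early harvest came at the end of the pulse or later. For the other sets the labels contradict each other, since a ctrl library carries a field of 30 min ATP and a 0p5h library one of vehicle. The sets are therefore called by their library names, and which of ctrl and 0p5h was the unstimulated one was not inferred from the values. Nothing in the labels says that the numbered cultures came from separate mice, so the p-values measure the spread between these samples, which may be technical.

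EGR1, EGR2 and EGR3 are zinc finger transcription factors that bind GC-rich sites, and NAB1 and NAB2 are the corepressors that limit their activity. Calcium signals and the ERK cascade induce their genes through serum response factor (SRF), which binds CArG boxes, and through CREB, which binds cAMP response elements. The IER proteins are small, mostly nuclear factors: IER3 is a product of NF-κB signaling that affects cell survival, and IER5 binds protein phosphatase 2A and acts on heat shock factor HSF1. In dendritic cells, such genes report recent signaling, for instance through purinergic receptors for ATP.

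The stretches just upstream of transcription start are shown for Egr2, whose level changed between the sets, and for Ier3 and Ier5, whose levels did not pass the test in any comparison. RefSeq start sites on GRCm38.p6 were matched for 3 of the 6 genes. The strand is that of the gene, bases that the annotation counts as exon are left out, and capitals mark matches to 6 motifs searched on both strands, namely the CArG box, the NF-κB site, the CREB half-site TGACG, the EGR site GCGNGGGCG, the AP-1 site TGANTCA and the TATA box TATAAA.
Egr2, chr10:67537619-67537868, plus strand: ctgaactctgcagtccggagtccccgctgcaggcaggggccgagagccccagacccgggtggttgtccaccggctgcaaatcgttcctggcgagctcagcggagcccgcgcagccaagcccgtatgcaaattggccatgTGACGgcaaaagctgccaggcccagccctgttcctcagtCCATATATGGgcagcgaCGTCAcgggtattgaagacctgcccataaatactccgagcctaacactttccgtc
Ier3, chr17:35821463-35821683, plus strand: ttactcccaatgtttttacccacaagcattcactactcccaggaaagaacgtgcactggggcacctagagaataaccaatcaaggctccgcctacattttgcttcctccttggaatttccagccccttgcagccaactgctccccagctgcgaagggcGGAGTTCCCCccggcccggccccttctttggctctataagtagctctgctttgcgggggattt
Ier5, chr1:155099637-155099886, minus strand: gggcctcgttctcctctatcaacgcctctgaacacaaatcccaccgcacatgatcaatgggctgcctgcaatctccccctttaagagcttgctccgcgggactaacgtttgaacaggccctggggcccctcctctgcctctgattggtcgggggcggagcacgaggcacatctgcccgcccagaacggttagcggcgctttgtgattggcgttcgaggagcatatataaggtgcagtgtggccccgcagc
In the Egr2 window, a CArG box lies 72 to 63 bases before the start and is flanked by CREB half-sites at 111 to 107 and 55 to 51 bases, none of which overlap. Of the 5 Egr2 windows, 3 overlap and share this box, that of the start at 67537566 has another CArG box 72 to 63 bases upstream, and that of the start at 67535499 has none but holds overlapping NF-κB sites. CArG boxes were found in 1.47% of 32851 mouse promoter windows of 250 bases, and CREB half-sites in 17.8%. The Ier3 window holds 1 NF-κB site at 92 to 83 bases, a motif present in 7.25% of windows, and the Ier5 window holds none of the 6 motifs. The EGR site was present in 4.7% of all windows, the AP-1 site in 6.75% and the TATA box in 12.4%. A match describes letters and not binding, and no binding was measured here.

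On GRCm38, the genes lie on chromosome 18 from 34859823 to 34864984 (Egr1, ENSMUSG00000038418), chromosome 10 from 67535475 to 67542188 (Egr2, ENSMUSG00000037868), chromosome 14 from 70077445 to 70080157 (Egr3, ENSMUSG00000033730), chromosome 8 from 84661331 to 84662852 (Ier2, ENSMUSG00000053560), chromosome 17 from 35821684 to 35822923 (Ier3, ENSMUSG00000003541) and chromosome 1 from 155096361 to 155099636 (Ier5, ENSMUSG00000056708). Reads were counted over exons without regard to strand, and no other gene of the table overlaps one of the 6. Between 8237393 and 32164225 reads per library were counted, with a median of 19556920. Levels are given as CPM, the counts per 1000000 counts after scaling of library sizes. Dendritic cell markers, of which 6 of 6 reached 1 CPM, summed to between 11059 and 29736 CPM, macrophage markers to between 506 and 2098 CPM and granulocyte markers to between 106 and 560 CPM, while T cell, B cell and NK cell markers stayed at or below 3.79 CPM. Cacnb3 itself read 1035 to 2143 CPM in WT libraries and 573 to 1331 CPM in Cacnb3-/- libraries, so reads still fell on the gene in the knockout and the ranges overlapped. As the samples are bulk RNA, fewer expressing cells and less RNA per cell cannot be told apart.

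Per kilobase of exon (RPKM), Ier5 was the most abundant of the 6 transcripts in every group, with a mean of 126 ± 12.2 RPKM in the WT libraries named ctrl (SD, n = 5). There, Ier3 (48 ± 13.8 RPKM) and Ier2 (41.9 ± 6.11) followed with overlapping ranges, then Egr2 (10.2 ± 3.69), Egr1 (2.73 ± 1.15) and Egr3 (0.879 ± 0.297), the last pair with overlapping ranges although Egr1 was the higher one in 5 of 5 cultures. In the WT libraries named 0p5h, Ier2 (69.9 ± 11.6 RPKM) lay above Ier3 (51.4 ± 16.5) in 5 of 5 cultures, and Egr3 (6.56 ± 4.54) and Egr1 (6.32 ± 2.25) could not be ordered. At 24h the WT order was that of ctrl. Cacnb3-/- BMDCs had the same order in ctrl and 24h, and in 0p5h Ier3 (72.7 ± 36.3 RPKM) and Ier2 (72.1 ± 22.1) had nearly equal means. Ier3 lay above Ier2 there in only 1 of 5 cultures. Egr3 had 0.106 ± 0.133 RPKM in the Cacnb3-/- libraries named 24h, the lowest mean of any of the 6 genes in any group.

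**Figure D1:**
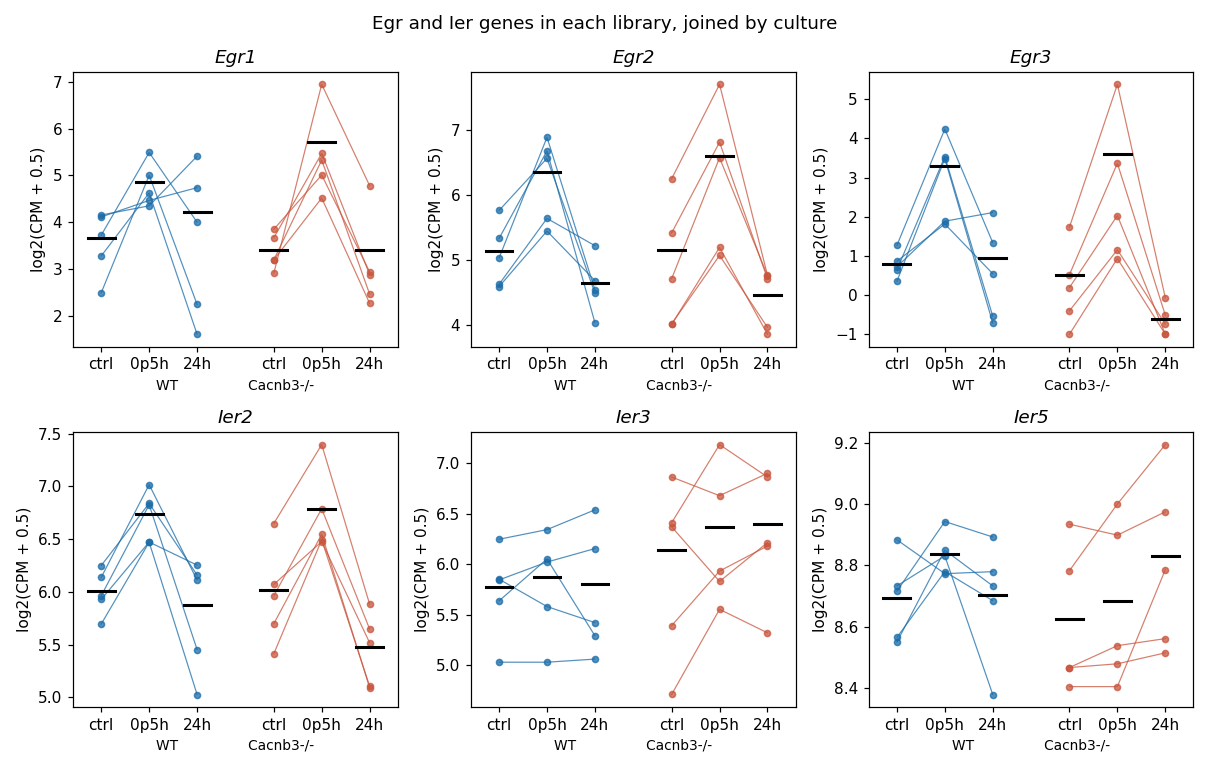
Level of each gene as log2(CPM + 0.5) in all 30 libraries, with WT in blue and Cacnb3-/- in red, thin lines joining the 3 libraries of a culture and black bars at the mean CPM of 5 libraries. Egr1, Egr2, Egr3 and Ier2 peak in the libraries named 0p5h in most cultures, while the lines for Ier3 and Ier5 are nearly level or differ between cultures.

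The first comparison set the libraries named 0p5h against those named ctrl and asked how the genes differed between these sets, whose labels contradict each other on treatment. Egr1, Egr2, Egr3 and Ier2 were higher in the libraries named 0p5h in 5 of 5 WT and 5 of 5 Cacnb3-/- cultures. Such counts, and statements below that groups did or did not overlap, have no share over all genes beside them and are descriptions. The test was edgeR's quasi-likelihood test, with p adjusted by Benjamini-Hochberg over all genes, and calls needed an adjusted p under 0.05 together with a change of 2-fold or more. Without pairing, 0 of the 6 genes were called in WT, where 23 of 13085 genes tested (0.176%) were, and 1 of 6, Egr1, in Cacnb3-/- BMDCs, where 37 of 12750 (0.29%) were. In each genotype, 4 of the 6 had an unadjusted p under 0.05, as did 594 of all genes in WT and 509 in Cacnb3-/- BMDCs. DESeq2 called 3 of the 6 in WT, against 51 of all genes, and 1 of the 6 in Cacnb3-/- BMDCs, against 56. Libraries of the same culture deviated together from their group means, so a fit with the culture as a replicate block was also made. It called Egr1, Egr2 and Egr3 in both genotypes, 3 of 6 against 0.581% of all genes in WT and 0.643% in Cacnb3-/-. The median log2 fold change of the 6 genes was 0.99 in WT and 1.11 in Cacnb3-/- BMDCs without the block, against 0.01 and -0.01 over all genes tested.

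Egr1, the best studied member of its family, read 16.8, 5.12, 17.3, 12.7 and 9.2 CPM in the WT libraries named ctrl, in the order of cultures p974s846, p974s850, p974s855, p974s856 and p974s864, which is kept throughout. The same cultures read 21.6, 31.6, 19.9, 44.5 and 24.2 CPM in 0p5h, so that the groups did not overlap, although p974s846 and p974s855 moved by little. In Cacnb3-/- BMDCs, Egr1 read 6.99, 8.64, 8.66, 13.9 and 12.2 CPM in ctrl, in the order p974s843, p974s851, p974s852, p974s853 and p974s865, and 123, 39.7, 22.4, 31.7 and 43.9 CPM in 0p5h. These groups did not overlap either, and culture p974s843 stood far above the others in 0p5h. The log2 fold change in WT was 1.22 (SE 0.33, adjusted p = 0.332), and 1.22 with the block (SE 0.27, adjusted p = 0.0267). With the block, this WT call was lost without culture p974s850 (0.93, adjusted p = 0.0644), p974s856 (1.05, adjusted p = 0.134) or p974s864 (1.18, adjusted p = 0.0562). In Cacnb3-/- BMDCs, Egr1 was higher in 0p5h by a log2 fold change of 2.36 (SE 0.42, adjusted p = 0.0349), or 2.14 with the block (SE 0.36, adjusted p = 0.0136). Without p974s843 the value was 1.65 and was called with the block and without it (adjusted p = 0.0327 without). The call with the block was lost without p974s851 (2.12, adjusted p = 0.0712) or p974s865 (2.23, adjusted p = 0.0745), and that without the block also without p974s852 or p974s853, at adjusted p between 0.0867 and 0.26 over these 4 cultures.

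Egr2, a regulator of myelination and of T cell tolerance, read 23.6, 39.8, 24.2, 32.2 and 53.8 CPM in the WT libraries named ctrl and 43.1, 102, 49.4, 118 and 94.2 CPM in 0p5h. The Cacnb3-/- values were 25.7, 42.2, 15.7, 15.6 and 75.6 CPM in ctrl and 94.8, 112, 33.1, 36.1 and 208 CPM in 0p5h. The groups overlapped in both genotypes, cultures differed in their ctrl level, and the libraries of p974s865 were the highest in both Cacnb3-/- sets. Within cultures the log2 change ran from 0.80 to 1.86 for WT and between 1.05 and 1.86 for Cacnb3-/-. Egr2 was not called without the block, at 1.24 in WT (SE 0.33, adjusted p = 0.316) and 1.45 in Cacnb3-/- (SE 0.55, adjusted p = 0.92). With it, Egr2 was higher in 0p5h by 1.21 in WT (SE 0.13, adjusted p = 0.000271) and by 1.41 in Cacnb3-/- BMDCs (SE 0.11, adjusted p = 0.000112).

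Egr3, a close relative of Egr2 with the lowest counts of the 6 genes, read 1.32, 0.776, 1.15, 1.91 and 1.06 CPM in the WT libraries named ctrl and 3.02, 10.7, 3.2, 18.4 and 11.1 CPM in 0p5h, without overlap. The Cacnb3-/- libraries read 0.643, 0.936, 0, 0.257 and 2.83 CPM in ctrl and 3.59, 9.81, 1.41, 1.73 and 41.2 CPM in 0p5h. In culture p974s852 the ctrl count was 0, which allows a level of up to 0.236 CPM at that depth (3 counts, counting error only). Culture p974s865 held the highest Egr3 in both sets, and its ctrl library overlapped the 0p5h range. The log2 fold change was 2.90 in WT (SE 0.51, adjusted p = 0.0555) and 3.50 in Cacnb3-/- (SE 1.04, adjusted p = 0.541). With the block it was 2.76 (SE 0.30, adjusted p = 0.00033) and 3.44 (SE 0.25, adjusted p = 9.62e-05), the largest difference among the 6 genes in both genotypes.

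Ier2, a small nuclear protein, read 75.6, 61.9, 60.4, 69.9 and 51.3 CPM in the WT libraries named ctrl and 114, 113, 88.3, 129 and 88.2 CPM in 0p5h, with no overlap. Its Cacnb3-/- libraries read 61.9, 51.4, 42.1, 99.8 and 66.7 CPM in ctrl and 110, 93, 89.6, 168 and 88.6 CPM in 0p5h, where p974s853 was highest in both sets and its ctrl library overlapped the 0p5h range. Of the 4 genes that were higher in every culture, Ier2 had the smallest and most even change, between 0.54 and 0.88 on the log2 scale within WT cultures and between 0.41 and 1.08 within Cacnb3-/- cultures. The fitted log2 fold changes were 0.75 in WT (SE 0.13, adjusted p = 0.0558) and 0.76 in Cacnb3-/- BMDCs (SE 0.25, adjusted p = 0.673). With the block, 0.74 (SE 0.05, adjusted p = 2.35e-05) and 0.77 (SE 0.09, adjusted p = 0.00192) passed the p threshold but stayed under 2-fold.

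Ier3 and Ier5 were not called in either genotype. Ier3 ranged from 32.2 to 75.5 CPM in the WT libraries named ctrl and from 32.2 to 80.7 CPM in 0p5h, was higher in 3 of 5 WT and 3 of 5 Cacnb3-/- cultures, and had log2 fold changes of 0.11 (95% interval -0.46 to 0.68) and 0.22 (-0.68 to 1.11). Ier5 ranged from 374 to 472 CPM in WT ctrl and from 437 to 492 CPM in WT 0p5h, and was higher in 0p5h in 4 of 5 WT and 4 of 5 Cacnb3-/- cultures. Its log2 fold changes of 0.15 (95% interval -0.04 to 0.35) in WT and 0.05 (-0.32 to 0.41) in Cacnb3-/- had the narrowest intervals of the 6 genes, which left no room for a 2-fold change. Neither gene passed the p threshold with the block, with adjusted p between 0.163 and 0.819.

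Libraries were spread over 3 lanes. In the 9 of 10 cultures whose ctrl and 0p5h libraries shared 1 lane, Egr1, Egr2, Egr3 and Ier2 were higher in 0p5h in 9 of 9, with median log2 changes of 1.77, 1.35, 2.84 and 0.82. With lane as a covariate instead of the block, Egr1 in Cacnb3-/- BMDCs lost its call (2.25, adjusted p = 0.111).

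**Figure D2:**
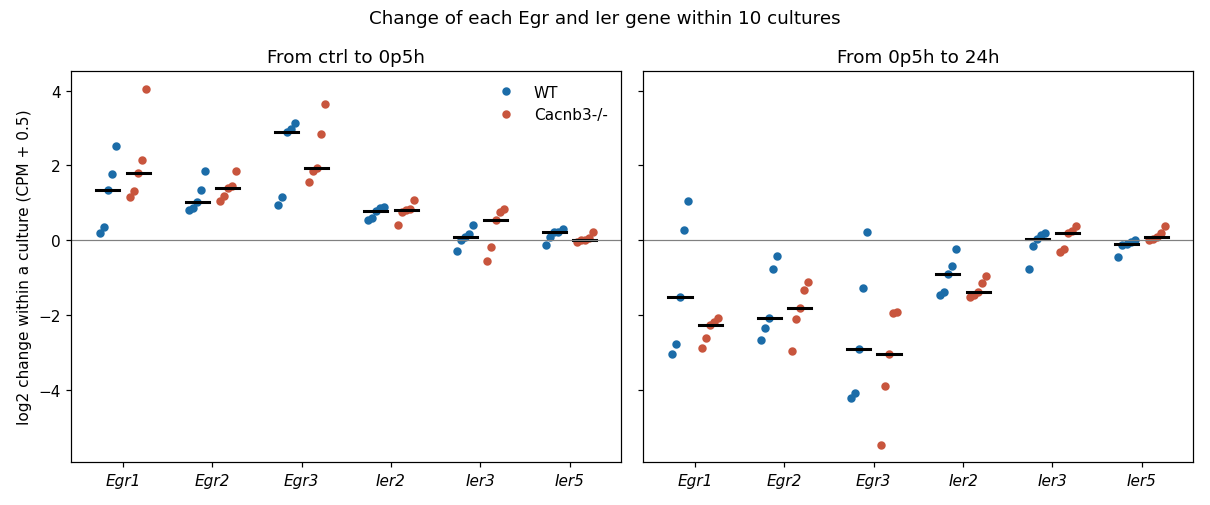
Change within each of the 10 cultures on the log2(CPM + 0.5) scale, from ctrl to 0p5h on the left and from 0p5h to 24h on the right, with WT in blue, Cacnb3-/- in red and black bars at the median of 5 cultures. From ctrl to 0p5h all points of Egr1, Egr2, Egr3 and Ier2 lie above 0, and from 0p5h to 24h those of Egr2 and Ier2 all lie below 0, while 2 WT points of Egr1 and 1 of Egr3 do not.

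The comparison of 24h with 0p5h asked how the genes differed between these sets, and it used the same 0p5h libraries as the comparison above. As the labels of 0p5h contradict each other, a difference here is not read as a course over time after ATP. Without the block, 1 of 6 genes was called in WT (Egr2) against 82 of 12830 genes (0.639%), and 2 of 6 in Cacnb3-/- BMDCs (Ier2 and Egr3) against 84 of 12730 (0.66%). With the block, 2 of 6 were called in WT (Egr2 and Egr3) against 1.78% of all genes, and 4 of 6 in Cacnb3-/- BMDCs (Egr1, Egr2, Egr3 and Ier2) against 2.88%. All of these calls were lower at 24h. Dendritic cell markers summed to 11059 to 20606 CPM in the Cacnb3-/- libraries named 24h and to 14822 to 27504 CPM in those named 0p5h, and the median log2 fold change of the 6 markers was -0.44, or -0.45 with the block. Of these, 2 lay above and 4 below their 0p5h level in both fits, and 0 passed the p threshold without the block but 5 with it, all under 2-fold. In WT the marker medians were -0.07 and -0.08, with 1 and 2 past the p threshold. Their part in the result was not tested.

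Egr2 read 25.2, 15.9, 36.8, 22.8 and 22 CPM in WT and 26.6, 25.7, 15.1, 14 and 26.7 CPM in Cacnb3-/- BMDCs at 24h, below every 0p5h library of the same genotype. The SD between cultures was 7.68 CPM in WT and 6.46 CPM in Cacnb3-/- at 24h, against 33.3 and 71.4 CPM at 0p5h, or 31.3% and 29.9% of the mean against 41% and 73.7%. On the log2 scale, WT Egr2 was lower at 24h than in 0p5h by 1.72 (SE 0.30, adjusted p = 0.0193), and by 1.66 with the block (SE 0.31, adjusted p = 0.0107). Without the block, the WT call was lost without p974s850 (adjusted p = 0.14), p974s856 (adjusted p = 0.14) or p974s864 (adjusted p = 0.0889). The Cacnb3-/- change was -2.15 (SE 0.46, adjusted p = 0.0538), and -1.91 with the block (SE 0.22, adjusted p = 0.000206).

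For Ier2, the libraries named 24h read 71, 43.3, 75.8, 68.7 and 32.1 CPM in WT and 49.6, 33.6, 33.9, 58.5 and 45.3 CPM in Cacnb3-/- BMDCs, below all 0p5h libraries of their genotype. The change was -0.87 in WT (SE 0.22, adjusted p = 0.112), and -0.92 with the block (SE 0.16, adjusted p = 0.00809), under 2-fold. Without p974s855, which changed least, the blocked WT value reached -1.10 (adjusted p = 0.00516) and was called. Ier2 of Cacnb3-/- BMDCs differed by -1.30 (SE 0.22, adjusted p = 0.0185), and by -1.29 with the block (SE 0.10, adjusted p = 1.77e-05). Removing each library's trend with GC content moved this to -0.90 (adjusted p = 0.0801), or -0.91 with the block (adjusted p = 7.46e-05), which ended the call in both fits. Without the block, the call was also lost without p974s843, p974s851 or p974s852, at adjusted p between 0.0533 and 0.117.

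Egr3 read 0.96, 0.111, 3.81, 2.03 and 0.188 CPM in the WT libraries named 24h, and p974s855 was above its own 0p5h library. In Cacnb3-/- BMDCs, the 24h libraries read 0, 0.2, 0, 0.0982 and 0.454 CPM from counts of 0, 4, 0, 1 and 11, below all 0p5h libraries. The counts of 0 allow up to 0.399 CPM in p974s843 and 0.264 CPM in p974s852. The fitted change was -2.69 in WT (SE 0.79, adjusted p = 0.179), and -2.59 with the block (SE 0.71, adjusted p = 0.0477), a call that was lost without p974s846, p974s850, p974s856 or p974s864, at adjusted p between 0.094 and 0.127. Without p974s855 it was -3.80 (adjusted p = 0.0947), and -3.74 with the block (adjusted p = 0.00935). The corresponding Cacnb3-/- value was -5.78 (SE 1.14, adjusted p = 0.037) and -6.17 with the block (SE 0.30, adjusted p = 8.1e-07). With so few counts at 24h the size of this fold is poorly set. It was -5.57 with the block without p974s865 (adjusted p = 3.97e-08), and without the block its call was lost without p974s843, p974s851, p974s852 or p974s853, at adjusted p between 0.057 and 0.236.

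For Egr1, the WT libraries named 24h read 26.2, 4.23, 42.1, 15.5 and 2.54 CPM, so that p974s846 and p974s855 lay above their own 0p5h level while the other 3 cultures lay below it. The Cacnb3-/- libraries named 24h read 27, 5.01, 4.31, 7.17 and 6.85 CPM, each below the 0p5h library of its culture, although the value of p974s843 overlapped the 0p5h range. In WT the change was -0.64 (SE 0.61, adjusted p = 0.761) and did not pass the test with the block either (-1.07, SE 0.59, adjusted p = 0.269). Without p974s855 it was -1.33 (adjusted p = 0.606), and -1.72 with the block (adjusted p = 0.0981). The Cacnb3-/- change was -2.40 (SE 0.58, adjusted p = 0.0861), and -2.47 with the block (SE 0.14, adjusted p = 1.76e-06). Leaving out p974s843 gave -2.55 (adjusted p = 0.00258) without the block.

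Ier3 and Ier5 again stayed within their spread. Ier3 differed between 24h and 0p5h by -0.06 in WT (95% interval -0.74 to 0.61) and by 0.04 in Cacnb3-/- BMDCs (-0.72 to 0.81). Ier5 differed by -0.13 (95% interval -0.37 to 0.11) and 0.16 (-0.23 to 0.55), and it was higher at 24h in 1 of 5 WT and in 5 of 5 Cacnb3-/- cultures, with a median within-culture change of 0.08 in the latter.

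**Figure D3:**
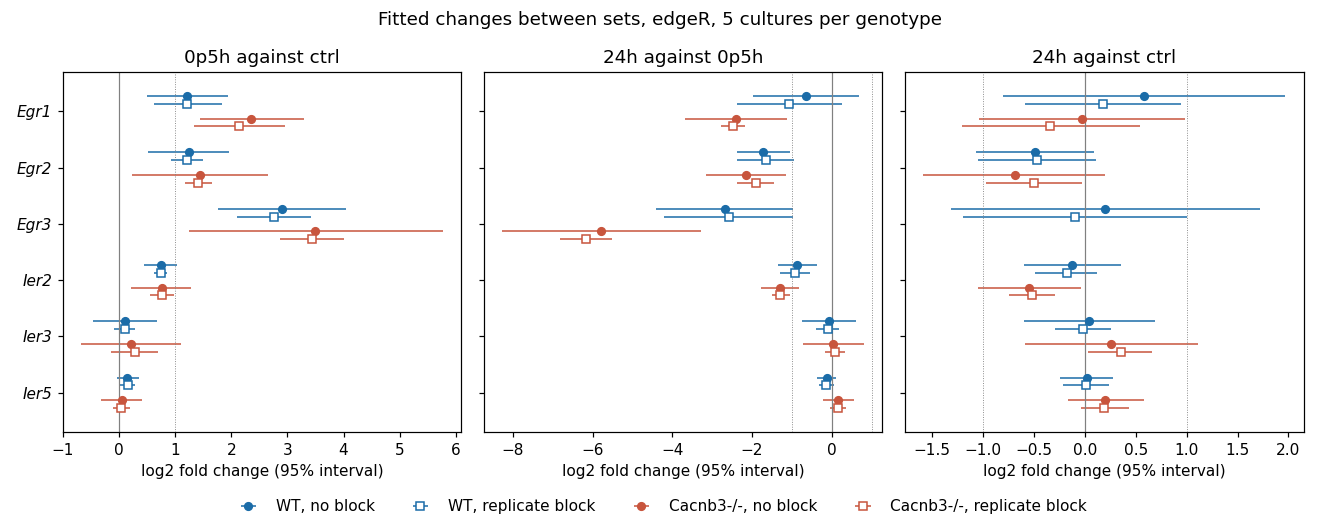
Fitted log2 fold change of each gene with its 95% interval in the comparisons of sets, for WT (blue) and Cacnb3-/- (red) without the block (filled circles) and with it (open squares), where dotted lines mark 2-fold. Egr1, Egr2 and Egr3 lie beyond 2-fold for 0p5h against ctrl, the values of Ier3 and Ier5 lie close to 0, and Egr3 has no value for 24h against ctrl in Cacnb3-/- BMDCs because its counts were too low to be tested.

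Between 24h and ctrl, libraries already used in the comparisons above, 0 of 6 genes were called in WT, against 2 of 13176 genes (0.0152%), and 0 of the 5 genes tested in Cacnb3-/- BMDCs, against 0 of 12452 (0%). DESeq2 also called 0 of the members in both genotypes, against 30 of all genes in WT and 48 in Cacnb3-/- BMDCs. An unadjusted p under 0.05 was reached by 0 members in WT and by 1, Ier2, in Cacnb3-/- BMDCs, as by 1106 and 1343 of all genes. The block also called 0 members, against 0.926% and 1.11% of all genes. In WT the changes were 0.58 for Egr1 (95% interval -0.81 to 1.97), -0.49 for Egr2 (-1.07 to 0.09) and 0.20 for Egr3 (-1.32 to 1.72), the last being -0.70 without p974s855. In Cacnb3-/- BMDCs they were -0.03 for Egr1 (-1.04 to 0.98, and -0.91 without p974s843) and -0.69 for Egr2 (-1.59 to 0.20), while Egr3 fell short of the count needed for testing, with at most 11 counts in a library at 24h. Ier2 was below its ctrl level at 24h in 5 of 5 Cacnb3-/- cultures and 4 of 5 WT cultures, with changes of -0.55 (SE 0.23, adjusted p = 0.444) and -0.13 (SE 0.22, adjusted p = 0.901). The Cacnb3-/- value was -0.52 with the block (SE 0.10, adjusted p = 0.0188), but the numbers were not accepted as pairs between these sets, where p974s843 correlated at only 0.0555.

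Comparing Cacnb3-/- with WT BMDCs within each set asked whether loss of the subunit altered these genes. No member was called in ctrl (0 of 13022 genes, 0%), 0p5h (0 of 12806, 0%) or 24h (0 of 12706, 0%). An unadjusted p under 0.05 was reached by 0, 1 and 0 members and by 2161, 2103 and 4877 of all genes. DESeq2 called 0, 0 and 1 member, against 146, 83 and 606 of all genes in ctrl, 0p5h and 24h. The 1 member was Egr3 at 24h, which edgeR did not test for low counts. The genotypes overlapped for each of the 6 genes in each set, but the share of all genes that did so is not given here. Egr1 in 0p5h, the member with an unadjusted p under 0.05, had a log2 fold change of 0.90 (95% interval 0.00 to 1.80, adjusted p = 0.303), and 0.30 without p974s843 (adjusted p = 0.682). Among the members that edgeR tested, the lowest adjusted p was that of Ier3 at 24h (0.195). The values for Egr3 also rested on 1 culture, since its change in 0p5h went from 0.33 (95% interval -1.49 to 2.15) to -1.13 without p974s865 (adjusted p = 0.327). Ier3 was the only member with a change above 0.3 in all sets, at 0.39 in ctrl (95% interval -0.38 to 1.17), 0.52 in 0p5h (-0.19 to 1.23) and 0.61 in 24h (-0.12 to 1.34), none of which passed the test. For Ier5 the intervals ran from -0.44 to 0.49 over the sets, which leaves out a 2-fold difference, and for Ier2 from -0.92 to 0.48.

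Whether a change between sets itself differed between genotypes was tested as an interaction. From ctrl to 0p5h 0 of 13465 genes were called (0%, and 0% with the block), from ctrl to 24h 0 of 13536 (0%, and 0.118% with the block) and from 0p5h to 24h 0 of 13424 (0%, and 0.00745% with the block), and 0 of the 6 members were called in any of these fits. An unadjusted p under 0.05 was reached by 0, 0 and 1 members and by 30, 658 and 789 of all genes. Without the block, DESeq2 called 0 members and 0 of all genes in each. For the blocked fit from ctrl to 24h, the culture numbers were not accepted as pairs in Cacnb3-/- BMDCs. The Egr1 change to 0p5h was larger in Cacnb3-/- than in WT BMDCs by 1.15 on the log2 scale (95% interval -0.01 to 2.30, adjusted p = 1), by 0.92 with the block (-0.20 to 2.05), and by 0.44 without p974s843. The Egr2 and Ier2 changes differed by 0.23 (95% interval -1.20 to 1.65) and 0.02 (-0.59 to 0.64), and by 0.23 (-0.17 to 0.63) and 0.03 (-0.20 to 0.27) with the block. From 0p5h to 24h, the Egr3 change was lower in Cacnb3-/- BMDCs by 3.09 (95% interval -6.16 to -0.02, adjusted p = 0.68), and the blocked difference of -3.58 did not pass the test (adjusted p = 0.11). Without WT culture p974s855 these values were -1.97 (adjusted p = 0.813) and -2.43 (adjusted p = 0.191), and without Cacnb3-/- culture p974s865 the blocked value was -2.96 (adjusted p = 0.208).

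Other genes of the pathway were read from lists chosen by function. At most 4 genes per list were named by smallest p in 0p5h against ctrl in WT. Their values in that comparison are therefore descriptions of genes picked by it. Of 27 other immediate early genes, 8 were called higher in 0p5h than in ctrl in WT and 9 in Cacnb3-/- BMDCs (11 and 13 with the block), and 0 were called lower. Over all genes, 0.176% and 0.29% were called in either direction, and 0.581% and 0.643% with the block. Nr4a1, an orphan nuclear receptor, was higher in 0p5h by 4.31 and 4.57 on the log2 scale (adjusted p = 0.000926 and 0.0011), and Fosb, an AP-1 subunit, by 5.73 and 5.18 (adjusted p = 0.00456 and 0.00164), fitted values above those of the 6 Egr and Ier genes. Sik1, a kinase that restrains CREB coactivators, was higher by 1.82 and 1.91, and Btg2, an antiproliferative factor, by 1.68 and 1.79. From 0p5h to 24h, 12 of the 27 were called lower in WT and 11 in Cacnb3-/- BMDCs, with 0 and 1 called higher. Of all genes, 0.639% and 0.66% were called there in either direction. The median change of the list was 0.77 and 0.86 up to 0p5h, and -0.92 and -1.11 from there to 24h, against medians within 0.01 of 0 over all genes.

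Of 8 ERK feedback genes, 0 were called in 0p5h against ctrl without the block and 1, Dusp4, with it, in each genotype. Dusp4, a phosphatase of ERK, changed by 1.06 in WT (adjusted p = 0.155, and 1.08 with the block, adjusted p = 3.49e-05) and by 1.19 in Cacnb3-/- BMDCs (adjusted p = 0.0604, and 1.22 with the block, adjusted p = 0.0147). It was lower at 24h than in 0p5h, by 1.66 (adjusted p = 0.00538) and 1.81 (adjusted p = 0.00256). Spry1, an inhibitor of ERK signaling, had changes of 0.67 and 0.82 to 0p5h, and Dusp5 of 0.70 and 0.74, all under 2-fold. The list's median was 0.45 and 0.48.

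None of the upstream factors was called in this comparison, neither among 6 of 8 tested names of SRF and its partners nor among 8 ERK cascade kinases, with medians between 0.01 and 0.04. Srf itself changed by 0.20 in both genotypes (with the block, adjusted p = 0.0294 in WT and 0.233 in Cacnb3-/-). The corepressors changed little from ctrl to 0p5h, Nab1 by 0.03 and -0.13 and Nab2 by 0.09 and 0.19. From 0p5h to 24h, Nab2 changed by -0.59 in WT (adjusted p = 0.29) and by -0.79 in Cacnb3-/- BMDCs (adjusted p = 0.168), and by -0.57 (adjusted p = 0.0159) and -0.80 (adjusted p = 0.00166) with the block, under 2-fold. Among 5 genes of IER partner proteins, which hold Hsf1, Mcl1 and subunits of protein phosphatase 2A, 0 were called, with medians of 0.04 and 0.11. Ier5l, a relative of Ier5, changed by 0.36 in WT and 0.20 in Cacnb3-/- BMDCs without passing the test, and Egr4 had at most 5 counts in any library and was not tested.

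Of 9 genes described as EGR targets, 8 were tested, and the median change from ctrl to 0p5h was -0.05 in WT and -0.03 in Cacnb3-/- BMDCs. Tnf, which encodes tumor necrosis factor, differed the other way, by -1.70 in WT (adjusted p = 0.0571) and -1.60 in Cacnb3-/- (adjusted p = 0.457), and was called with the block (-1.74, adjusted p = 0.000131, and -1.54, adjusted p = 0.00387). It was called higher at 24h than at 0p5h in Cacnb3-/- BMDCs (1.92, adjusted p = 0.0296). The other 7 were not called from ctrl to 0p5h in either fit. Tissue factor (F3), Tgfb1 and Cd44 had changes of 0.42, 0.10 and 0.13 in WT. In comparisons of genotypes and in interactions, 0 genes of any of these lists were called.

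Cultures of 1 genotype differed widely in the level of these genes. The SD of culture means on the log2 scale was 0.57 for Egr2 and 0.56 for Ier3, above their SD within cultures of 0.44 and 0.25, as it was for Ier2 (0.31 against 0.20) and Ier5 (0.18 against 0.11), whereas it was 0.59 against 0.72 for Egr1 and 0.65 against 0.71 for Egr3. Over its 3 libraries, Cacnb3-/- culture p974s865 had a mean of 103 CPM for Egr2, 14.8 CPM for Egr3 and 1882 CPM for the 6 macrophage markers, the highest of the 10 cultures for each. Cultures p974s852 and p974s853 had the lowest Egr2 means (21.3 and 21.9 CPM), macrophage marker means of 541 and 652 CPM, and the highest Ier5 means (490 and 512 CPM). Their dendritic cell marker means, 12625 and 15529 CPM, were also the lowest of the 10 cultures. Other cultures differed: p974s843 had 1220 CPM of macrophage markers but 1.41 CPM of Egr3. WT culture p974s855 had 662 CPM of macrophage markers and 36.8 CPM of Egr2. The part of the macrophage or dendritic cell markers in these levels was not tested.

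Across the 30 libraries, Egr2 and Egr3 were the pair with the highest correlation of log2(CPM + 1), with Pearson's r of 0.91, and 0.83 for deviations from the group means. Egr1 correlated most with Ier2 (0.79, and 0.60 for deviations) and less with Egr3 (0.70 and 0.39) and Egr2 (0.65 and 0.31). Egr2 had negative values with Ier3 (-0.27 and -0.48) and Ier5 (-0.34 and -0.61), which were larger in size for the deviations. Ier2 correlated with Egr2 at 0.56 over all libraries but at -0.09 for deviations. These values are descriptions, since libraries share cultures, sets and depth and are not independent.

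**Figure D4:**
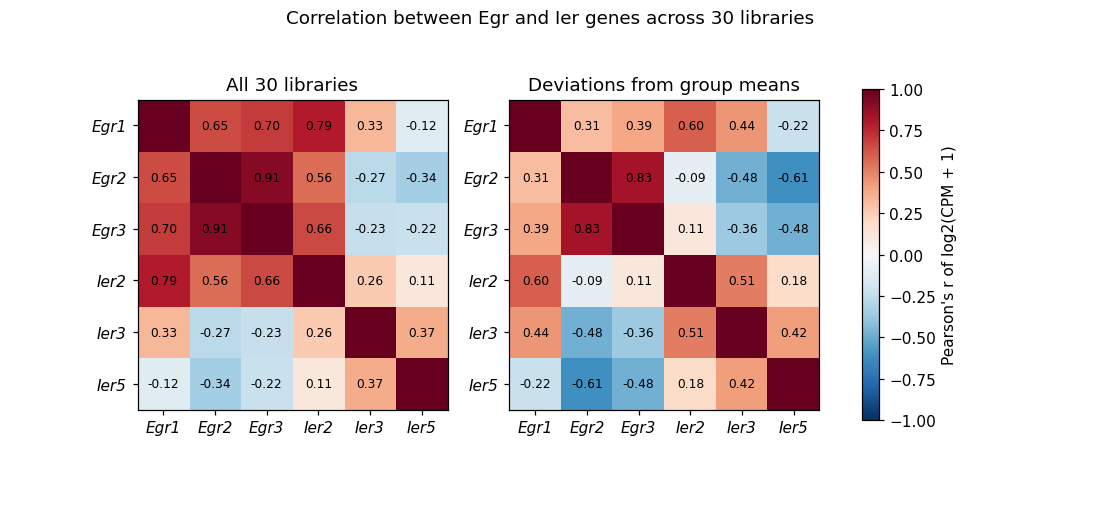
Pearson's r of log2(CPM + 1) between each pair of the 6 genes over 30 libraries, on the left for all values and on the right for deviations from the means of the 6 groups, where red is positive and blue is negative. Egr2 and Egr3 form the strongest pair in both panels, and Egr2 has negative values with Ier3 and Ier5.

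The genes with the most similar profile were picked as the 5 with the highest r among 13755 genes over the same 30 libraries. For Egr1 these were Hilpda (0.85), Nr4a1 (0.83), Trim25 (0.82), Rgcc (0.81) and Atf3 (0.81), and for Egr2 they were Lrrc32 (0.95), Nlrp3 (0.94), Sgk1 (0.91), Egr3 (0.91) and Plk3 (0.91). Egr3 shared Lrrc32 (0.90) with Egr2 and Nr4a1 (0.87) with Egr1, besides Egr2 (0.91), Ndel1 (0.87) and Ets2 (0.86). Ier2 was nearest to Kdm6b (0.88), Siah2 (0.88), Zfp703 (0.87), Junb (0.86) and Tubb3 (0.86). Ier3 and Ier5 had lists with no other immediate early gene of those followed here, namely Pla2g12a (0.89), Ppp2r5a (0.87), Rbpms2 (0.85), Anp32a (0.85) and Rras2 (0.85) for Ier3, and Cmtm6 (0.86), Uap1 (0.78), Fchsd2 (0.77), Tmem39a (0.77) and Rassf3 (0.77) for Ier5.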

How the data were processed

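The authors deposited 1 table of raw counts of reads per gene for 30 libraries, which the file header ascribes to featureCounts 1.5.1 with Ensembl 79 on GRCm38 and no strand option, so that reads from overlapping genes on either strand cannot be told apart. The submitters' processing notes name mm10, STAR 2.4 and DESeq2, whereas the study's methods give a later mouse build. All 30 columns were mapped to samples by name. Symbols were assigned by Ensembl ID from a later annotation for 38984 genes (89.4%).

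Genes passing edgeR's default expression filter were tested per comparison (R 4.3.3, edgeR 4.0.16, TMM scaling, quasi-likelihood test) with Benjamini-Hochberg adjustment over all genes tested. Calls required an adjusted p under 0.05 and at least 2-fold. There were 12 comparisons, of which 3 are between genotypes and 3 are interactions. CPM used TMM-scaled library sizes, and RPKM divides CPM by exon length. Within-culture changes added 0.5 CPM and correlations 1 CPM. Depth is given with the results, and intervals of zero counts cover counting error only.

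Libraries with the same culture number were checked as pairs by the correlation of their deviations from group means over 13755 genes. The lowest was 0.301 for the pairs of sets that were accepted. For ctrl and 24h in Cacnb3-/- BMDCs it was 0.0555, so the numbers were not taken as pairs there, nor in interactions over those sets. Alternatives were DESeq2 1.42.0, no filter, no fold minimum, a fit over 30 libraries, GC content, lane, the replicate block and leaving out each culture, and the lane and combined block settings were added after seeing the data. Fits of some of the comparisons were also run on simulated data. The spread between cultures set there was smaller than that of the Egr genes, and no result here rests on those runs.

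The 6 genes, the gene lists and the tests were chosen with earlier results of these data known. Besides the 6 genes, Egr4, Ier5l, Nab1, Nab2 and Srf were named whatever their values, with up to 4 genes per list by smallest p in 0p5h against ctrl in WT and 5 per gene by likeness. The 95% intervals use the t distribution with each gene's degrees of freedom. No library was left out.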

Additional observations from a re-analysis of the deposited data

Results flagged for a closer look

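In 4 of the 36 groups formed by 6 genes, 3 sets and 2 genotypes (11.1%), 1 of 5 libraries stood apart from the others by a gap of more than 0.71 of the whole range. That limit is passed in about 1 in 20 groups of independent, normally distributed values. The groups here share libraries and were read in CPM without logarithms, so the 11.1% cannot be set against that rate. All 4 were Cacnb3-/- groups. Egr1 in the set named 0p5h read 123 CPM in culture p974s843 and 22.4 to 43.9 CPM in the others, a gap of 0.787 of the range. Egr1 at 24h read 27 CPM in the same culture and 4.31 to 7.17 CPM in the others (0.874). Egr3 in 0p5h read 41.2 CPM in p974s865 and 1.41 to 9.81 CPM in the others (0.789). Ier2 in 0p5h read 168 CPM in p974s853 and 88.6 to 110 CPM in the others (0.736). No difference between genotypes in the change between sets passed its test.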

How the results depend on the processing

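Of 649 log2 fold changes of the 6 genes under alternatives other than leaving out a culture, 607 kept their direction and their side of the thresholds, 17 changed sign, 19 became calls and 6 lost a call. Of 880 with 1 culture left out, 801 were unchanged in this sense, 54 changed sign, 2 became calls and 23 lost a call. The cause was not tested in any case. Precision is limited by 5 cultures per genotype and, for Egr3, by counts of 0 to 67 in the Cacnb3-/- libraries named ctrl and 24h.

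The count of the 6 genes called from ctrl to 0p5h in WT went from 0 to 3 with DESeq2, 1 with no filter on low counts, 1 after removal of the GC trend and 3 with the replicate block. In Cacnb3-/- BMDCs it went from 1 to 0 with all 30 libraries in 1 fit, 0 with lane as a covariate and 3 with the block, and was 0 to 1 with a culture left out. From 0p5h to 24h it went from 1 to 0 in WT with all 30 libraries and to 2 with the block, and was 0 to 1 with a culture left out, or 1 to 3 with the block. In Cacnb3-/- BMDCs it went from 2 to 4 with DESeq2, no filter, all 30 libraries or the block and to 1 after removal of the GC trend, and was 0 to 2 with a culture left out. Between genotypes at 24h, DESeq2 and no filter called 1 instead of 0. The replicate block changed no other call of a member.

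The counts over all genes moved more. DESeq2 called 51 instead of 23 genes from ctrl to 0p5h in WT and 56 instead of 37 in Cacnb3-/-, 148 instead of 82 and 203 instead of 84 from 0p5h to 24h, 30 instead of 2 and 48 instead of 0 from ctrl to 24h, and 146, 83 and 606 instead of 0 between genotypes in ctrl, 0p5h and 24h. The block called 76, 82, 228, 367, 122 and 138 in the same order of set comparisons, although the culture numbers were not accepted as pairs for the last of these. Without a fold minimum, 38 and 153 genes were called from ctrl to 0p5h and from 0p5h to 24h in WT. Lane as a covariate gave 184 from 0p5h to 24h and 6 from ctrl to 24h in WT, and all 30 libraries gave 1 from ctrl to 24h in WT, 138 from 0p5h to 24h in Cacnb3-/- and 615 between genotypes at 24h. No filter gave 26 from ctrl to 24h in Cacnb3-/- and 376 between genotypes at 24h. Blocked interactions had 16 calls from ctrl to 24h and 1 from 0p5h to 24h, or 50 and 41 with DESeq2 and, for the latter, 3 after removal of the GC trend. Those from ctrl to 24h also used numbers that were not accepted as pairs. With 1 culture left out and no block, the set comparisons gave 3 to 13, 16 to 26, 39 to 72, 20 to 66, 0 to 2 and 0 to 3 calls, and the genotypes gave 0 to 249 in ctrl and 0 to 1129 at 24h. With the block, the interactions gave 6 to 44 and 1 to 252.

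None of the values that changed sign was called, and the largest in size of those listed here was -0.60. With lane as a covariate, these were Ier3 from ctrl to 0p5h in WT (-0.03), Egr1 (-0.23), Egr3 (-0.60) and Ier3 (-0.08) from ctrl to 24h in WT, Ier3 from 0p5h to 24h in Cacnb3-/- (-0.18), and Ier2 between genotypes in ctrl (-0.07) and 0p5h (-0.04). With the block, they were Egr3 (-0.10) and Ier3 (-0.02) from ctrl to 24h in WT. After removal of the GC trend, they were Egr1 from ctrl to 24h in Cacnb3-/- (0.28), Ier5 in ctrl (0.01) and Ier2 at 24h (0.15) between genotypes, and the interaction of Ier2 from ctrl to 24h (0.01, or 0.05 with the block) and from 0p5h to 24h with the block (0.02). The blocked interaction of Egr2 from ctrl to 24h was 0.01 with DESeq2 and 0.06 after removal of the GC trend.

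With 1 culture left out, WT values from ctrl to 24h ran from -0.70 to 0.44 for Egr3, -0.08 to 0.15 for Ier3 and -0.03 to 0.10 for Ier5. With the block they ran from -0.18 to 0.56 for Egr1, -0.87 to 0.23 for Egr3, -0.10 to 0.09 for Ier3 and -0.03 to 0.11 for Ier5. Ier3 from 0p5h to 24h ran from -0.18 to 0.09 in WT (-0.18 to 0.06 with the block) and from -0.02 to 0.20 in Cacnb3-/- (-0.01 to 0.16 with the block), and from -0.01 to 0.40 from ctrl to 0p5h in Cacnb3-/-. Egr1 from ctrl to 24h in Cacnb3-/- ran from -0.91 to 0.22. Between genotypes, ctrl values ran from -0.47 to 0.24 for Egr2, -0.18 to 0.14 for Ier2 and -0.15 to 0.01 for Ier5, those in 0p5h from -0.22 to 0.47 for Egr2, -1.13 to 0.73 for Egr3 and -0.15 to 0.14 for Ier2, and that of Egr2 at 24h from -0.29 to 0.02. Interactions from ctrl to 0p5h ran from -0.03 to 0.11 for Ier2 (-0.04 to 0.13 with the block) and -0.11 to 0.29 for Ier3. Those from ctrl to 24h ran from -0.45 to 0.21 for Egr2 (-0.25 to 0.25 with the block), and those from 0p5h to 24h from -0.05 to 0.25 for Ier3 and, with the block, -0.52 to 0.07 for Egr2.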
